A study of Homo sapiens with 2 samples.

Results

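The clustered protocadherin genes lie side by side on the long arm of human chromosome 5. They were examined here in a V5 ChIP of cardiac progenitors, in which tagged TET1 was compared with input chromatin. Members were all deposited peaks overlapping 140.15 to 140.9 Mb of chromosome 5 (hg19, as for every peak position below), and 20 of the 46208 peaks of the list met this rule. Within that stretch the PCDHA cluster was taken from 140.16 to 140.4 Mb, the PCDHB cluster from 140.43 to 140.63 Mb and the PCDHG cluster from 140.71 to 140.9 Mb. The clusters held 6, 1 and 11 peaks, and 1 further peak lay in each of the intervals between them.

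The cells came from H1, an established human embryonic stem cell line, whose own TET1 gene carries a V5 tag according to the study's design text. They were differentiated as a monolayer with 6 µM of the WNT activator CHIR99021 until day 2 and 5 µM of the WNT inhibitor IWP2 from day 3 to day 5, and were taken on day 7. There was 1 ChIP library and 1 input library, so there is no spread between replicates and intervals cover counting error only. The genotype entry of both libraries is wild type, and no V5 ChIP of untagged cells is listed, so binding of the antibody to other proteins cannot be told apart from TET1.

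Clustered protocadherins are cell-surface adhesion proteins that neurons use to tell their own branches from those of other cells. Each variable first exon has its own promoter. In the PCDHA and PCDHG clusters these exons are spliced to constant exons at the end of the cluster, whereas PCDHB genes have no constant exons. The last variable exons of PCDHA and PCDHG, called C type, differ in sequence from the rest and are known to be chosen less at random. Methylation of CpG sites and the insulator protein CTCF take part in the choice of promoter, and TET1, which oxidises methylated cytosine, has a CXXC domain that binds CpG-rich DNA.

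The reference gene table (GRCh38.p14) lists 15 protein-coding genes and 1 pseudogene in PCDHA, 16 and 3 in PCDHB, and 22 and 2 in PCDHG. In the order along the chromosome, the C-type genes PCDHAC1 and PCDHAC2 come last in PCDHA, and PCDHGC3, PCDHGC4 and PCDHGC5 come last in PCDHG. PCDHB has no C-type gene. These 53 genes outnumber the 20 peaks of the region. The table is on another build than the peaks, so names and neighbours are taken from it and no peak is joined to a gene.

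Many promoters of these genes share a short element, shown here because its commonest form differed between the clusters. RefSeq promoters (250 bases before to 50 bases after the start of a gene, GRCh38.p14) were given for 47 of the 53 genes, in 52 entries; those of PCDHA3, PCDHA13, PCDHB6, PCDHB11, PCDHGA12 and PCDHGC5 were not among them. The letters CGCT form the core of this element. They stood on either strand in 12 of 13 PCDHA entries (all but PCDHA9), 14 of 14 PCDHB entries and 25 of 25 PCDHG entries. Of all 35093 promoters of the table, 70.0% held them. A match anywhere in an entry was counted, so these are counts of the letters and not of the element. In PCDHB8, for example, the only match on the gene's strand lay after the start, at position 3. The letters before the core differed between clusters. The lines below give the element of the first 3 genes of each cluster that hold its commonest form, on the plus strand and with the core in capitals.
PCDHA1, chr5:140786084-140786115: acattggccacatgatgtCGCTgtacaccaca
PCDHA2, chr5:140794779-140794810: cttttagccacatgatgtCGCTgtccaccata
PCDHA4, chr5:140806977-140807008: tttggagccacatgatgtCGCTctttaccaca
PCDHB2, chr5:141094542-141094573: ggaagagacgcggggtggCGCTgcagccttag
PCDHB3, chr5:141100391-141100422: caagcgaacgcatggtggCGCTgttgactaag
PCDHB4, chr5:141121721-141121752: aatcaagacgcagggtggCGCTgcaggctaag
PCDHGA1, chr5:141330401-141330432: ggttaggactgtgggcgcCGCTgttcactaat
PCDHGB1, chr5:141350023-141350054: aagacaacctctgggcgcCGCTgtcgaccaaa
PCDHGA7, chr5:141382647-141382678: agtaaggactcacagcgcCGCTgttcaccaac

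These positions are on GRCh38.p14 and cannot be set against the peak positions. The commonest 8 letters ending in the core, on the gene's strand before its start, were ATGTCGCT in PCDHA, found in 9 of 13 genes. In PCDHB they were GTGGCGCT, found in 12 of 14 genes, and in PCDHG GCGCCGCT, found in 10 of 20 genes. None of these 3 forms was found on that strand in a promoter of another cluster. Among all promoters of the table, before the start, they stood in 0.117%, 0.524% and 1.2% on the gene's strand and in 0.182%, 0.94% and 2.44% on either strand. The letters were picked from the same promoters they are counted in, so the counts are a description. AGGGGGC, a core often seen in CTCF sites, was in none of the 52 entries on either strand and in 14.4% of all promoters. That says only that these letters are not in these windows.

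CpG content separated the C-type promoters from most of the others. The 5 entries of the 4 C-type genes held 15 to 27 CpG in 300 bases (median 23), all above the median of 14 over all promoters of the table. They lay within the quartiles of all promoters, 4 and 28, and 17174 of the 35093 promoters were above that median. PCDHAC1 had 27, PCDHAC2 15, PCDHGC3 18, and the 2 entries of PCDHGC4 had 23 and 24. The other PCDHA genes had 3 to 9 CpG (median 7) and the PCDHB genes 5 to 12 (median 7.5), none above 14. PCDHG genes of A and B type had 2 to 25 (median 7.5), with 4 of 22 entries above 14, all of PCDHGB4, PCDHGB5 or PCDHGB6. The next lines give the 150 bases before the start of the C-type genes and, for comparison, of a gene with CpG near the median in each cluster, on the plus strand with CpG in capitals.
PCDHAC1, chr5:140926149-140926298: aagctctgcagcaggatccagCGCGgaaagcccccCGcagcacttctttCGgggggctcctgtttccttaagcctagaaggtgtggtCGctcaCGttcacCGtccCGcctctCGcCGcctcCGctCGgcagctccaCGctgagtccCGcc
PCDHAC2, chr5:140966326-140966475: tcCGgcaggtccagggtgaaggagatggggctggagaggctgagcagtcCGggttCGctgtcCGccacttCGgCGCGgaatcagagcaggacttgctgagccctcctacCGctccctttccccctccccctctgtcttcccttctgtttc
PCDHGC3, chr5:141475816-141475965: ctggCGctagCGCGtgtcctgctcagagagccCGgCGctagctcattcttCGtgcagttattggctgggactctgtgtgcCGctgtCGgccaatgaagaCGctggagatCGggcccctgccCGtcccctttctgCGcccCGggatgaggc
PCDHGC4, chr5:141484880-141485029: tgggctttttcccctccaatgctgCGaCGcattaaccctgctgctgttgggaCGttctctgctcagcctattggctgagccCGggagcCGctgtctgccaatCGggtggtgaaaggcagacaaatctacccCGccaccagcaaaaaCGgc
PCDHA7, chr5:140834119-140834268: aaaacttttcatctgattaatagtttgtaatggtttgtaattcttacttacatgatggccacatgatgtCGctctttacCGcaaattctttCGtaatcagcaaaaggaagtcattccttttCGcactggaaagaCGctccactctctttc
PCDHB12, chr5:141208569-141208718: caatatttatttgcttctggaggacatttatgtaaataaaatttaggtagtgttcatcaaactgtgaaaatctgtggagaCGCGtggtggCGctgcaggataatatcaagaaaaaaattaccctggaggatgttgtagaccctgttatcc
PCDHGB3, chr5:141370092-141370241: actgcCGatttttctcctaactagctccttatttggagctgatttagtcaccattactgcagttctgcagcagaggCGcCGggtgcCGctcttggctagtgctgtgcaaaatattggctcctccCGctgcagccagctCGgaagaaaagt

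**Figure D1:**
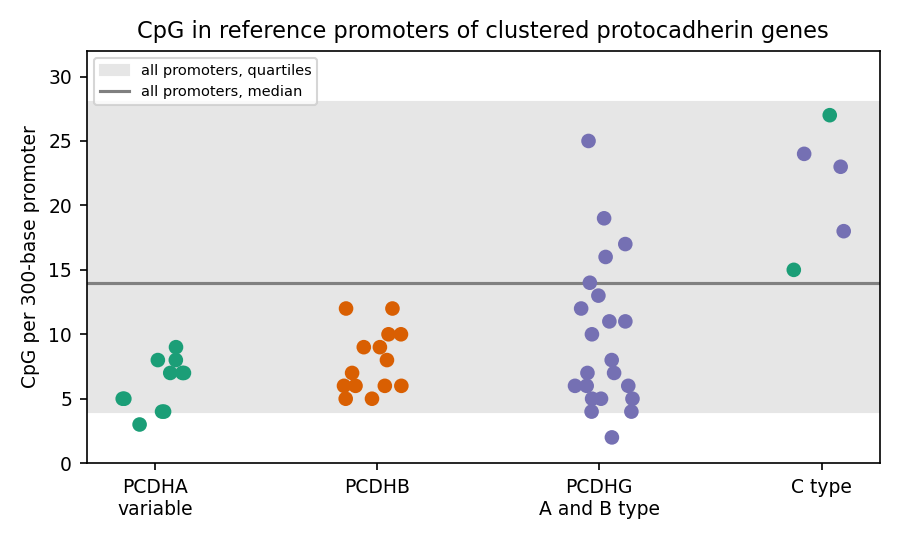
CpG number in each 300-base RefSeq promoter entry (points, GRCh38.p14) of variable PCDHA genes, PCDHB genes, PCDHG genes of A and B type and C-type genes, with green for PCDHA, orange for PCDHB and purple for PCDHG. The line is the median of all promoters, 14, and the band their quartiles, 4 and 28; all 5 C-type entries lie above the line.

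Peaks were few over PCDHB and most frequent over PCDHG. PCDHG had 5.79 peaks per 100 kb (exact 95% Poisson interval 2.89 to 10.4), PCDHA 2.5 (0.917 to 5.44) and PCDHB 0.5 (0.0127 to 2.79). Peaks lay over 10.1% of PCDHG (19.2 of 190 kb), 3.79% of PCDHA (9.10 of 240 kb) and 0.778% of PCDHB (1.56 of 200 kb). Per protein-coding gene there were 0.5, 0.4 and 0.0625 peaks in that order.

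With all deposited peaks, the difference between PCDHG and PCDHB was the one among the clusters that exceeded counting error. Density in PCDHG was 11.6 times that in PCDHB (exact conditional 95% interval 1.68 to 498), an interval that is wide because PCDHB rests on 1 peak. PCDHG against PCDHA gave 2.32 (0.785 to 7.63), and PCDHA against PCDHB gave 5 (0.607 to 230). The difference between PCDHG and PCDHA depended on weak peaks: with scores of 100 or more, PCDHG kept 9 peaks, PCDHA 2 and PCDHB 0, and PCDHG against PCDHA gave 5.68 (1.18 to 54.1). The intervals are not adjusted for their number and treat neighbouring peaks as independent.

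The 500 kb on either side set these values in context. The left flank, which ends at 140.15 Mb, had 17 peaks, or 3.4 per 100 kb (1.98 to 5.44), over 6.35% of its length. The right flank, which starts at 140.9 Mb, had 29 peaks, or 5.8 per 100 kb (3.88 to 8.33), over 9.96%. PCDHG was thus close in density and covered share to the right flank beside it. Against both flanks together (4.6 per 100 kb, 8.16% covered) the density ratio was 1.26 for PCDHG (0.588 to 2.47), 0.543 for PCDHA (0.19 to 1.28) and 0.109 for PCDHB (0.00269 to 0.637). PCDHB was the cluster whose density fell short of the flanks by more than counting error. With scores of 100 or more PCDHA did so as well, at 0.245 (0.0285 to 0.956), and PCDHB, with 0 peaks, had an upper bound of 0.573. In the upper 50% of the list by score the PCDHA ratio was 0.347 (0.0398 to 1.4), within counting error again, and the upper bound for PCDHB was 0.831. These intervals also treat neighbouring peaks as independent, and clustering of peaks would make them wider.

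**Figure D2:**
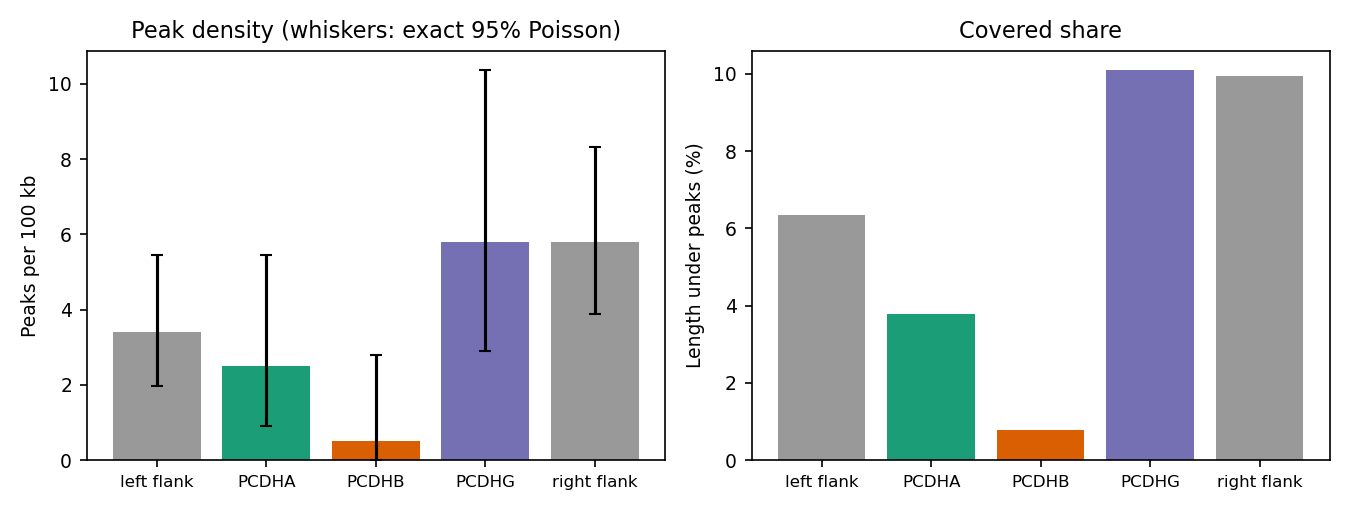
Peaks per 100 kb with exact 95% Poisson whiskers (left) and percent of length under peaks (right) for the left flank, the PCDHA, PCDHB and PCDHG clusters and the right flank, from 1 peak list. PCDHB, with 0.5 peaks per 100 kb and 0.778% covered, is lowest in both panels, and PCDHG (5.79) is level with the right flank (5.8).

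The flanks are denser than most of the genome, and so the clusters rank differently against the whole list. In windows of 200 kb along all chromosomes, from first to last peak, the median was 1 peak, the number PCDHB has, and 34.7% of the 15015 windows held none. PCDHA held more peaks than 80.3% of 12514 windows of its length, and PCDHG more than 92.5% of 15804 windows of its length. By covered share, 78.7% of such windows were below PCDHA, 46.8% below PCDHB and 92.3% below PCDHG. Windows over assembly gaps and centromeres, which cannot hold a peak, were not removed, so the ranks of the clusters may be too high. PCDHB was therefore sparse beside its neighbours and ordinary beside these windows. Chromosome 5, from its first to its last peak, had 1.09 peaks per 100 kb and 2.01% of that stretch covered.

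**Figure D3:**
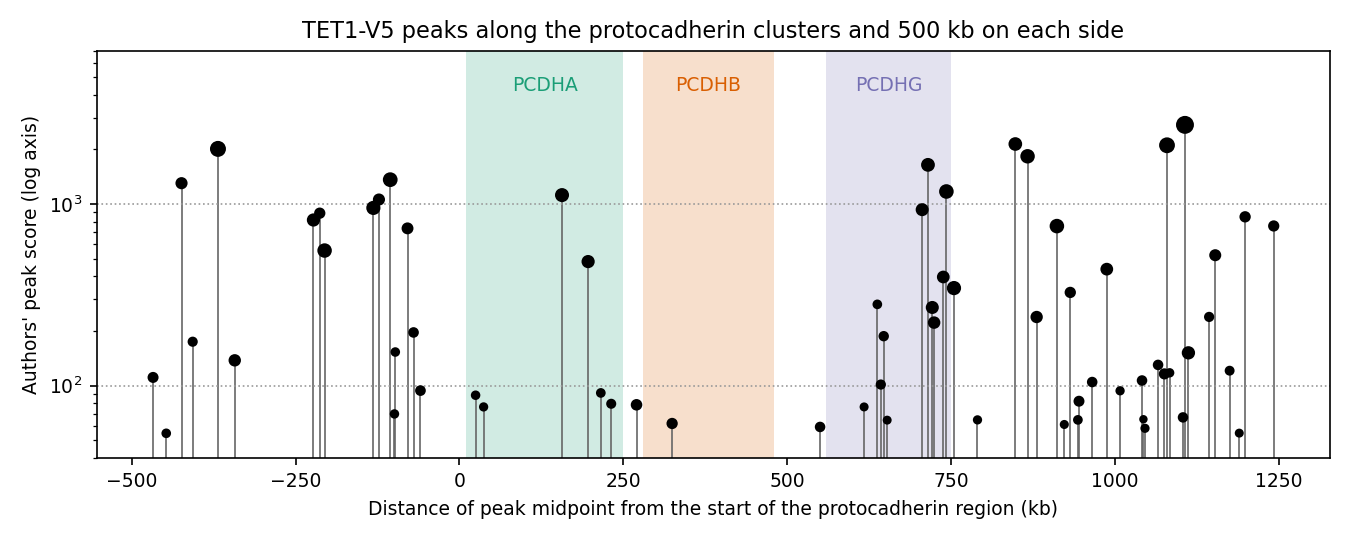
Score (log axis) of each peak against the distance of its midpoint from the start of the protocadherin region in kb, with 500 kb on each side; point size grows with peak width, coloured bands are the clusters, and dotted lines mark scores of 100 and 1000. The 3 peaks of the region above 1000 lie in the later parts of PCDHA and PCDHG, and PCDHB holds 1 peak with a score of 61.9.

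In PCDHA the peaks formed a weak pair near the start and a group of 4 in the later part. The authors' score, for which no header states a unit, is used to rank peaks within this list, and weak and strong refer to it. The first peak, chr5:140174242-140175254, was 1013 bp wide with a score of 88.52. The second, chr5:140186510-140187460, was 951 bp wide with a score of 76.31. Both scored below 100. A peak-free stretch of 118 kb followed.

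The strongest and widest PCDHA peak, chr5:140305287-140307910, ended that stretch, with 2624 bp and a score of 1121.49. Of all peaks in the list, 83.0% scored lower. The next peak had its midpoint 186 kb from the start of the cluster, a width of 2272 bp and a score of 482.41. The fifth had 1071 bp and a score of 91.13, and the last, chr5:140381092-140382262, had 1171 bp and a score of 79.42. Thus 2 of 6 PCDHA peaks stood out in score and width, at 147 and 186 kb from the start of the 240 kb cluster, and the other 4 were weak.

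Divided at its middle, PCDHA had 2 peaks over 1.64% of its first 120 kb and 4 over 5.95% of its last 120 kb. This division, like that of PCDHG below, was made with the peak positions known. By gene order the last part of the cluster is where PCDHAC1, PCDHAC2 and the constant exons come, but on which of them these peaks lie was not tested.

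PCDHB held a lone weak peak, chr5:140473826-140475380, of 1555 bp and with a score of 61.85. Of the list, 11.9% scored lower. Its midpoint was 44.6 kb from the start of the cluster, and no peak followed in the remaining 155 kb. The last 100 kb of PCDHB had 0 peaks, which at this count allows a density of up to 3.69 per 100 kb.

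The peaks on either side of PCDHB were weak too. Between PCDHA and PCDHB lay chr5:140419463-140421111, with 1649 bp and a score of 78.39. Between PCDHB and PCDHG lay chr5:140699688-140700999, with 1312 bp and a score of 59.19. In the gene table SLC25A2, a mitochondrial carrier, and TAF7, a subunit of the general transcription factor TFIID, stand between PCDHB15 and PCDHGA1. The 3 consecutive peaks between the last of PCDHA and the first of PCDHG all scored below 80.

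The longest peak-free stretch of the region ran from 140475381 to 140699687, or 224 kb. It took in most of PCDHB and of the interval after it. On chromosome 5, 201 of 1968 distances between neighbouring peaks were longer, and 89.7% were shorter. Over all chromosomes 94.1% were shorter. A stretch without peaks of this length was thus in the upper part of the distribution without being extreme.

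PCDHG began without peaks, then had a run of small ones and, after another break, a run of larger ones. No peak lay in its first 57.1 kb. The first, chr5:140767060-140767946, had 887 bp and a score of 76.3. Peaks 2 to 5 followed with widths of 868 to 1271 bp and scores of 280.38, 101.36, 187.23 and 64.53. The last of these was chr5:140802275-140803142, the narrowest peak of the region. Their midpoints were spaced 5.32, 4.43 and 5.26 kb apart. A break of 51.9 kb separated them from the rest.

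The later run of 6 peaks held the strongest peaks of the whole region. It opened with chr5:140854998-140857183, of 2186 bp and with a score of 932.03. Then came the highest score of any member, 1645.9, at chr5:140863695-140866223 (2529 bp). Of the whole list, 88.3% of peaks scored lower than it. The run ended with the widest member, chr5:140891613-140894491, of 2879 bp and with a score of 1173.89.

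The 3 peaks between those had scores of 269.53, 222.44 and 396.76 and widths of 1994 to 2204 bp. Among them was the closest pair of the region, 0.671 kb apart. Every peak of the later run was wider than every peak of the earlier run, while the scores overlapped, since 280.38 in the earlier run lies above 269.53 and 222.44. In its first 95 kb PCDHG had 5 peaks over 5.58% of the length (median width 1058 bp, median score 101) and in its last 95 kb 6 peaks over 14.6% (2195 bp and 664). These stretches thus held similar peak numbers, and their covered shares differed with peak width. In the gene order PCDHGC3, PCDHGC4, PCDHGC5 and the constant exons come last. Which of these the later run covers was not tested.

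Spacing also differed between the clusters. The median distance between neighbouring peaks was 17.7 kb in PCDHA (5 distances, 11.3 to 118 kb) and 4.21 kb in PCDHG (10 distances, 0.671 to 51.9 kb). It was 15.2 kb in the left flank and 12.6 kb in the right flank. The median over all chromosomes was 13.2 kb and that of chromosome 5 was 21.1 kb. Most PCDHG peaks were thus close to a neighbour inside 2 runs, with long breaks before and between them. The first PCDHG peak stood 19.2 kb before the second, and the later run held a distance of 12.0 kb. The medians of PCDHA and PCDHG rest on few distances, and their ranges overlap.

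The shares of high and low scores among the 20 members could not be told apart from those of the list. The members' median score was 144, beside 172 over the list. A score of 1000 or more was reached by 3 of 20 peaks, 15% (95% Wilson interval 5.24% to 36.0%), against 18.6% of the whole list. Scores below 100 belonged to 9 of 20, 45% (25.8% to 65.8%), against 32.9% of the list. Both intervals include the share of the list. None of the 20 reached 3100, the ceiling at which scores of the list pile up and which 4.69% of the list reached, and none was 5 kb or wider, as 3.20% of the list were; for 0 of 20 the upper Wilson limit is 16.1%, and 3 counts of the 20, the limit taken for a count of 0, are 15%.

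In the left flank 4 of 17 peaks scored 1000 or more and in the right flank 4 of 29. The median score was 89.8 in PCDHA, 270 in PCDHG, 555 in the left flank and 130 in the right flank, beside 172 over the list. The median width was 1121 bp in PCDHA, 1994 bp in PCDHG, 1774 bp in the left flank and 1450 bp in the right flank, beside 1531 bp over the list. The lower PCDHA median rested on its weak peaks: with scores of 100 or more the order turned round, at 2448 bp in PCDHA (2 peaks) and 2085 bp in PCDHG (9 peaks).

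Width followed score among the members, as over the list, apart from a few peaks. The lone PCDHB peak was wider than 96.4% of the 4648 list peaks with a score within 10% of its own. The peak between PCDHA and PCDHB was wider than 95.4% of such peaks, and that between PCDHB and PCDHG wider than 92.1%. These 3 weak peaks were spread out for their score. At the opposite side, the second PCDHG peak, with 1058 bp at a score of 280.38, was wider than 1.4% of its like, and the other 16 members stood between 13.8% and 74.9%. Width and score come from the same peak call and are not independent measures.

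**Figure D4:**
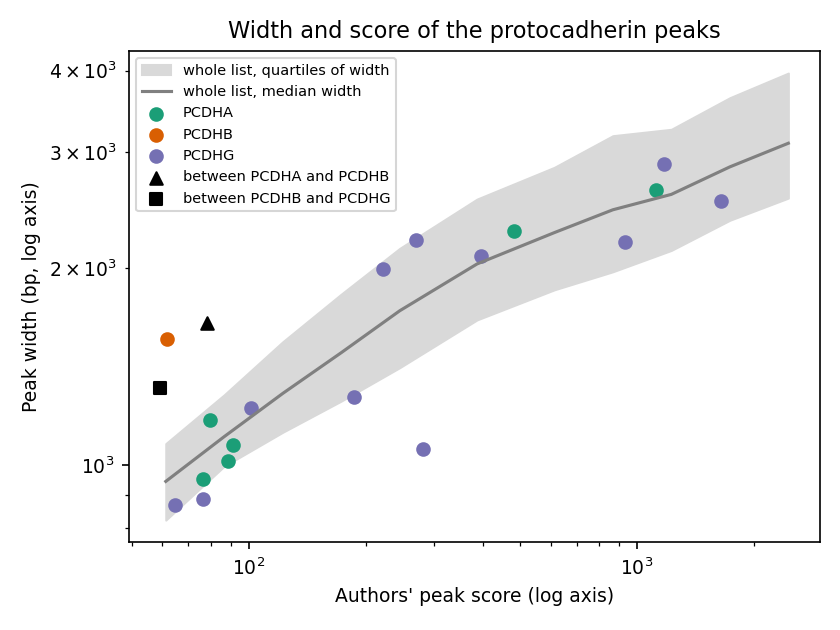
Width (bp, log axis) against score (log axis) of the 20 members, coloured by cluster, with triangles and squares for the peaks between clusters; the grey line and band are the median and quartiles of width over the list in score bins. The PCDHB peak and both peaks beside it lie above the band, and the second PCDHG peak lies below it.

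At the borders, the last peak outside on the left was chr5:140089934-140091298 (score 93.87), 58.7 kb before the region, and the first inside was 82.9 kb from it. On the right the first peak outside, chr5:140903271-140905982 (score 344.7), lay 3.27 kb past the end. In the gene table DIAPH1, a formin that nucleates actin filaments, is the next protein-coding gene after PCDHGC5. The right border thus falls between peaks that are close together, and the left border in a long empty stretch.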

How the data were processed

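The authors deposited 1 list of peaks, called in the V5 ChIP library against the input library. Reads were aligned with BWA 0.7.17 on hg19, per the submitters' processing notes. Peaks were called with MACS, per the peak names in the file; neither version nor settings of MACS are given in the sources used here. A score per peak was deposited by the authors without a stated unit, and read depth is unknown.

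A peak belonged to a region when it overlapped it by at least 1 bp; positions are printed counted from 1. Region borders, the members and the gene lists were chosen with earlier results of these data known. By rule, positions are printed for the widest, strongest, first and last peak of each cluster and for those beside its longest gap; other members are given as well because they are few. Counts carry exact 95% Poisson intervals, and density ratios exact conditional ones. The density ratio was tested on simulated Poisson counts, mostly larger than those of the clusters, and the other functions on evenly spaced peaks. Peaks that cluster were not simulated. With 1 library per group no test was run. Promoter sequences are RefSeq's, on GRCh38.p14, each distinct entry counted once. Counting used pandas 2.3.3 and numpy 2.4.6 in Python 3.11.15, and intervals used scipy 1.17.1. Alternatives were score thresholds, merging, midpoint membership, shifted borders and shorter flanks.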

Additional observations from a re-analysis of the deposited data

How the results depend on the processing

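For 13 results 50 alternatives were computed; 36 differed from the value in the text by up to 1.5 times, and 14 by more. With peaks scoring 100 or more, PCDHA had 0.833 peaks per 100 kb, 2.04% covered and a median width of 2448 bp (PCDHG 2085 bp, so that the order of widths turned round), and PCDHB had 0 peaks per 100 kb and 0% covered. In the upper 50% of the list by score, PCDHA again had 0.833 and 2.04% and PCDHB 0 and 0%, while the left flank had 2.2 peaks per 100 kb and the right flank 2.6 with 6.14% covered. With borders moved outwards by 10 kb, PCDHB, which then takes in the peak before it, had 0.909 peaks per 100 kb and 1.21% covered. Merging peaks up to 1 kb apart, membership by midpoint and flanks of 250 kb moved no result past 1.5 times. PCDHG exceeded PCDHB in density beyond counting error in each setting run, where the lowest lower bound was 1.497 (merged peaks). PCDHG exceeded PCDHA so with scores of 100 or more and in the upper 50% (5.05, 1.01 to 48.8) but in no other setting. PCDHA fell short of both flanks so only with scores of 100 or more among the settings run. The order PCDHG, PCDHA, PCDHB in density and covered share held in each setting run. Counts of 1 to 11 peaks limit every comparison, and the intervals treat neighbouring peaks as independent, so clustering of peaks would make them wider. Joining peaks to promoters or exons needs hg19 annotation. No paired analysis was possible because ChIP and input are 1 library each.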
